A study of Mus musculus with 6 samples.

Results

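Solute carriers are the transport proteins that move amino acids, sugars, metals, vitamins and other small molecules across the membranes of the cell and of its organelles, and their genes are numbered in families by the figure after Slc. Here the Slc genes were compared between Leydig cells of the fetal mouse testis (FLCs) and of the adult testis (ALCs). A gene was a member when its symbol in the deposited expression table began with Slc followed by a number. This gave 218 members among 10580 listed genes, in 45 families, of which 15 had 5 or more members. Of 371 protein-coding genes with such a symbol in the GENCODE vM21 annotation, the other 153 have no value used here. All 218 members were matched to a protein-coding gene by symbol. Slc4a1ap, Slc9a3r1 and Slc9a3r2 carry such a symbol but encode partners of transporters.

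FLCs came from testes at embryonic day 18.5 and ALCs from testes at postnatal day 100, with 3 RNA libraries per stage. Both groups were XY and carried the same heterozygous Tg(Nr5a1-GFP) transgene, and cells with strong GFP fluorescence were sorted in both. The embryos came from CD-1 females mated with transgenic males. Nr5a1 is also active in Sertoli cells, so the sort rests on the strength of the signal. FLCs of several sorts were pooled to reach enough RNA, and testes of the 2 stages were taken apart with different enzymes. All 3 FLC libraries and 1 ALC library carry the same lane mark (L002) in the deposited sample sheet and 2 ALC libraries carry another (L001). Dissociation differed between the stages throughout, so it cannot be told apart from stage. Lane L002 holds both stages, but with no values per library in use lane was not separated from stage either.

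As background, Leydig cells make the androgens of the testis from cholesterol, in steps that start in the mitochondrion. Several amino acid exchangers of family 7 reach the plasma membrane with a partner, the heavy chain CD98 encoded by Slc3a2, and exchange amino acids across it. The carriers of family 25 sit in the inner membrane of the mitochondrion and link its metabolite, nucleotide and phosphate pools with the cytosol. Members of families 30 and 39 move zinc in opposite directions, out of the cytosol and into it. Uptake of carnitine at the plasma membrane (Slc22a5) and exchange of carnitine esters in the mitochondrion (Slc25a20) are steps on the path of long-chain fatty acids to oxidation.

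For each gene the table gives its normalized counts averaged over the 6 libraries, and the log2 fold change between the stages with its standard error (SE), and it lists genes with an adjusted p below 0.05. A positive log2 fold change stands for a higher value in ALCs. The level in each group was worked out from the mean and the fold change and is called the implied mean. Values of single libraries are not analysed here, so the error between replicates is given as the 95% interval of the fold change, 1.96 SE to each side, with n = 3 libraries per group. The implied means of the listed genes sum to 1.92e+07 normalized counts per FLC library and 2.53e+07 per ALC library. In FLCs 472 genes share a lowest implied mean of at most 0.163 normalized counts, and in ALCs 131 genes lie at no more than 0.207, which was read as no read in that group. The next step, the smallest count above none, lies at 0.592 in FLCs and 0.743 in ALCs. Folds against a group with no read are given as lower bounds, computed against 3 such steps (1.77 normalized counts in FLCs, 2.23 in ALCs). They cover counting error only.

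Leydig cell genes were high in both groups, and the 6 genes checked summed to 835819 normalized counts in FLCs against 1.42e+06 in ALCs. They did not move together. Insl3, Cyp17a1 and Star were called higher in ALCs, and Hsd3b1 was called higher in FLCs, at 274134 in FLCs and 56018.5 in ALCs. Cyp11a1 (176395 and 285976) and Nr5a1, the gene behind the sort (123795 and 78436.7), were not called. Markers of other cells moved with stage. All 7 spermatid genes checked were called higher in ALCs and summed to 42.8 normalized counts in FLCs and 18145 in ALCs. The 5 immune genes with a value summed to 453 and 2717, and the 2 Sertoli cell genes, Amh and Dhh, to 436 and 17. The erythroid and peritubular myoid genes checked have no value used here. In RNA of sorted populations, fewer cells of a type and less RNA per cell cannot be told apart.

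Of the 218 solute carrier genes, 91 were called higher in ALCs and 47 higher in FLCs, and 80 were listed without reaching the call. A call means an adjusted p below 0.01 by DESeq2's Wald test and a fold above 2. These are 41.7% and 21.6% of the members. Over the 10580 listed genes the same rule calls 32.1% higher in ALCs and 22.3% higher in FLCs. Over the 16048 genes that entered the adjustment the shares are 21.2% and 14.7%, but unlisted members cannot be counted on that base. The share called in FLCs thus lay close to the background and the share called in ALCs above it, and the median log2 fold change was 0.73 for members and 0.41 for all listed genes. Together the members took up 1.59% of the summed implied means in FLCs and 2.37% in ALCs, a measure that no rescaling alters. Slc7a5, Slc3a2 and Slc7a8 held most of that gap, since the other 215 members took up 1.38% and 1.43%. Without the 3 symbols of transporter partners, the calls were 90 in ALCs and 47 in FLCs.

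The balance of the calls depends on how the groups are scaled. When all fold changes were recentred so that the median listed gene was unchanged, a shift of 0.41 on the log2 scale, 70 members were called higher in ALCs and 66 in FLCs, against 2685 and 3620 over all listed genes. ALC calls then made up 51.5% of the member calls in place of 65.9%, and 42.6% of all calls in place of 59.0%. Equal summed means gave 71 and 66 members. None of the 47 members called in FLCs was lost by either recentring, 19 joined them, and 21 or 20 of the 91 ALC calls were lost. Each recentring lowers every log2 fold change by a constant, so the direction of these moves was set in advance. In the test against a 2-fold change itself, at an adjusted p of 0.01, 48 of the 138 called members no longer passed. The plot of levels in both groups shows members from no read to 93135 normalized counts, with the points above the 2-fold line reaching higher levels than those under it.

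**Figure D1:**
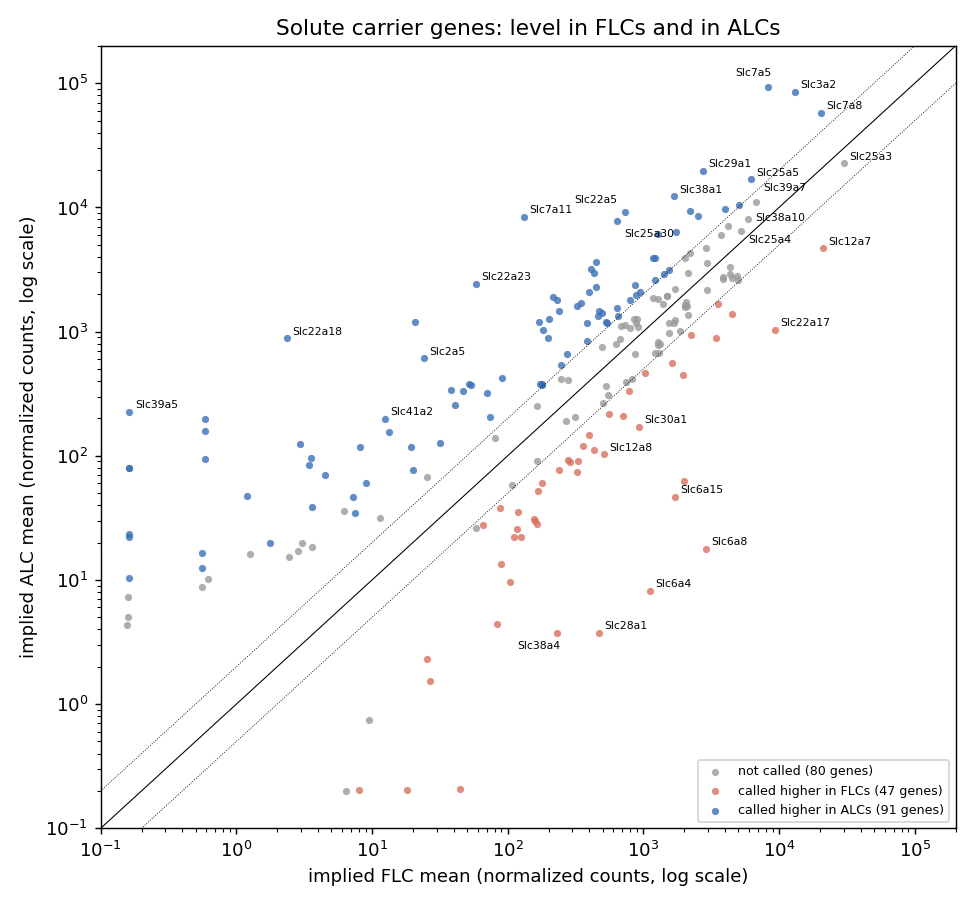
Implied mean of each of the 218 solute carrier genes in FLCs (horizontal) and in ALCs (vertical), in normalized counts on log scales. Each point is 1 gene, coloured by its call, the solid line marks equal levels and the dotted lines a 2-fold difference. Slc7a5, Slc3a2 and Slc7a8 stand highest in ALCs, at 93135, 85860 and 57722, and Slc6a8, Slc6a4 and Slc28a1 lie farthest below the line among the labelled genes.

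Families differed in the way their members lay. Their counts, here and below, stand beside 32.1% called in ALCs and 22.3% in FLCs over all listed genes. After recentring on the listed median, those shares are 25.4% in ALCs and 34.2% in FLCs. Among the larger families, every listed member was called in Slc1, Slc7, Slc16 and Slc22. Over all families, members called in both directions occurred in 21 families, 10 families had calls in ALCs only and 4 in FLCs only, and 10 had none. Family 22 had the highest median log2 fold change of the 15 larger families, 4.99, and family 6 the lowest, -1.90. In the plot by family these medians bracket wide spreads, and all but Slc12 have points on both sides of zero.

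**Figure D2:**
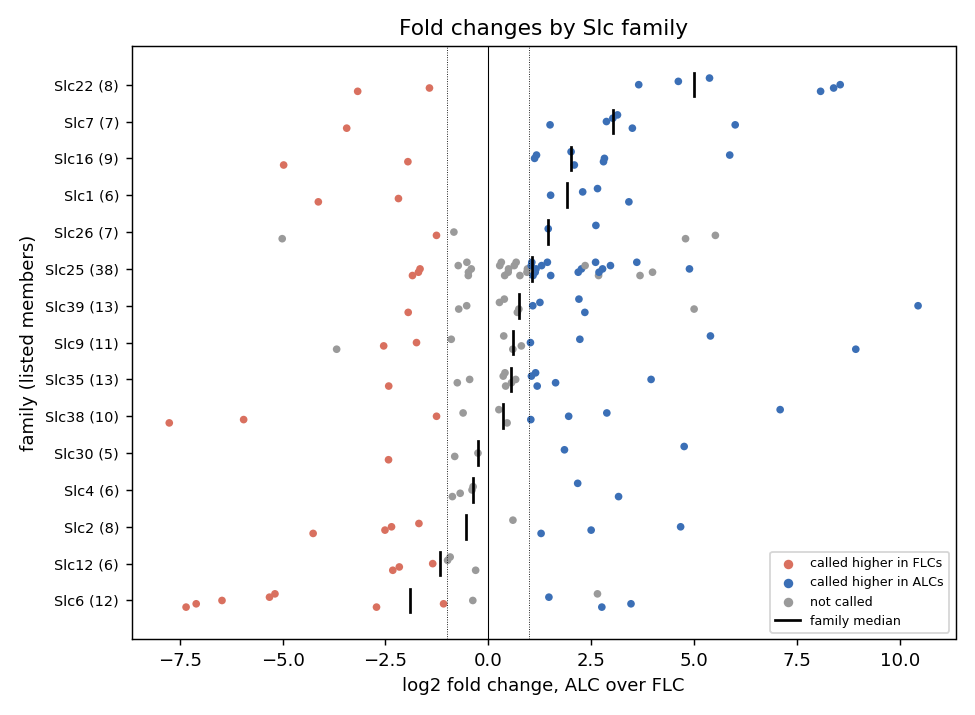
Log2 fold change (ALC over FLC) of every listed member of the 15 families with 5 or more members, ordered by the family median (black bar), with the number of members in brackets. Each point is 1 gene, coloured by its call, and dotted lines mark a 2-fold difference. All 6 members of Slc12 lie below zero, 6 of 7 members of Slc7 above it, and 7 of 12 members of Slc6 are called higher in FLCs.

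Amino acid exchangers of family 7 and their partner had the highest implied means per kilobase among the solute carriers of ALCs. The class of amino acid and peptide transporters held 41 members, of which 19 were called higher in ALCs, 14 higher in FLCs and 8 were not called. Its summed implied means took up 0.408% of all listed genes in FLCs and 1.18% in ALCs, and 0.190% and 0.239% without Slc3a2, Slc7a5 and Slc7a8. Slc3a2, the heavy chain CD98 (GRCm38 chromosome 19, 8706882 to 8723369, minus strand), stood at 13180.4 normalized counts in FLCs and at 85859.6 in ALCs by implied mean. Its log2 fold change was 2.70, 95% interval 2.51 to 2.89, DESeq2 adjusted p = 1.50e-166. Slc7a5, its light chain LAT1 for large neutral amino acids (chromosome 8, 121881150 to 121907694, minus strand), rose from 8236 to 93135, a log2 fold change of 3.50, 95% interval 3.23 to 3.77, with DESeq2 adjusted p = 9.32e-142. Slc7a8, the related light chain LAT2, rose less, from 20412 to 57722 (1.5, 95% interval 1.33 to 1.67). The intervals of the fold changes of Slc7a5 and Slc7a8 do not overlap. Per kilobase of exon, Slc7a5 stood at 2221 normalized counts in FLCs, below Slc7a8 at 4078, and at 25117 in ALCs, above Slc7a8 at 11533. The level of Slc7a5 per kilobase was thus 0.545 times that of Slc7a8 in FLCs and 2.18 times in ALCs. Slc3a2 stood at 3735 in FLCs and 24329.7 in ALCs on that scale. Ranked by it among the 10580 listed genes, Slc7a5 was number 280 in FLCs and 32 in ALCs, and the errors of single group means are not in the table, so neighbours in such an order were not told apart.

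The largest fold of the family was that of Slc7a11, the cystine/glutamate exchanger xCT that also pairs with CD98. It stood at 132 normalized counts in FLCs and 8441 in ALCs, 63.9-fold higher (log2 fold change 6.0, 95% interval 5.46 to 6.54, DESeq2 adjusted p = 8.95e-103). Of the other light chains, Slc7a7, y+LAT1, had implied means of 51.8 and 379 (log2 fold change 2.87, 95% interval 2.36 to 3.38). Slc7a10, the small neutral amino acid exchanger Asc-1, was the 1 member called the other way, at 104 in FLCs and 9.59 in ALCs (-3.44, 95% interval -4.50 to -2.38). The members that work without CD98 also rose in ALCs. Slc7a2, a transporter of cationic amino acids, went from 447 to 3637, and Slc7a4 from 217 to 1906. Slc7a7 is also strong in macrophages, and the 5 immune genes were higher in ALCs, with Csf1r at 351 in FLCs and 1612 in ALCs, and their part in the result was not tested.

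Slc7a11, Slc7a7 and Slc1a4 are shown by promoter, because they were the members called in ALCs whose promoter holds the letters of the amino acid response element, TGATGNAA, a site bound by factors such as ATF4. Each sequence runs 5′ to 3′ on the strand of the gene, from RefSeq on GRCm38.p6, 250 bases before to 50 bases after an annotated start, with matches on either strand in capitals.

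Slc7a11, chr3:50443564-50443863, minus strand: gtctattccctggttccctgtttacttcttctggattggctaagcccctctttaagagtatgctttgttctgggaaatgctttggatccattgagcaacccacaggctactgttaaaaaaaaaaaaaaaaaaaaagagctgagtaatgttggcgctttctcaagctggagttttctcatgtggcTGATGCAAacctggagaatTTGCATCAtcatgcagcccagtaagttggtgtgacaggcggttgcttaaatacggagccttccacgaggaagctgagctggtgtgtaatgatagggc

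Slc7a7, chr14:54417653-54417952, minus strand: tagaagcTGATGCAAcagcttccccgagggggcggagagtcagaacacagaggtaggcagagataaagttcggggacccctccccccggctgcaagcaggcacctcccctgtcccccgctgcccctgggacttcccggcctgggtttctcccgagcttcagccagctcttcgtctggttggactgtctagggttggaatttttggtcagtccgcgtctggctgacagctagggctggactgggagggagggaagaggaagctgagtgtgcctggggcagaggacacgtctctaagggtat

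Slc1a4, chr11:20332664-20332963, minus strand: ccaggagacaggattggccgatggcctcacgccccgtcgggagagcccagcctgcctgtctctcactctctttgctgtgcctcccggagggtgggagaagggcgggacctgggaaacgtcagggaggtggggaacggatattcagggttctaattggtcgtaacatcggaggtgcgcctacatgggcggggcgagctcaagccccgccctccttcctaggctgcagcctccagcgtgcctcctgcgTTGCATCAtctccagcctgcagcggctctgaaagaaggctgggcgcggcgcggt

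Slc7a7 has 5 starts in the table and the one nearest the GENCODE start is shown. The promoter of Slc7a11 held 2 matches, 1 on each strand, starting at bases 185 and 204 of the window. The other promoters held 1 each, at base 8 for Slc7a7 and at base 247 for Slc1a4. Across members, 169 of 218 had a promoter in the table, with each gene counted once over its starts, and 5 of these (2.96%) held the element, against 4.51% of 27025 genes. By call the counts were 3 of 75 in ALCs, 0 of 34 in FLCs and 2 of 60 among members not called, namely Slc9a9 and Slc26a10. Other motifs were searched on both strands too. The SF-1 site CAAGGTCA, which the protein made from Nr5a1 binds, was in 1 member promoter, of Slc31a2, and in 1.76% of all promoters. The antioxidant response element TGACNNNGC was in 30 member promoters (17.8%) and in 14% of all, and the cAMP response element TGACGTCA in 3 members, Slc25a25, Slc25a36 and Slc38a6, and in 2.03% of all. The last 2 motifs share their first 4 letters. These matches describe letters in a window and name no site in use.

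Glutamine and neutral amino acid transporters of families 1 and 38 were split between the stages. Slc1a5, ASCT2, had implied means of 201 and 1265 normalized counts in FLCs and ALCs (log2 fold change 2.65, 95% interval 2.28 to 3.03), and Slc1a4, ASCT1, of 496 and 1415 (1.51, 95% interval 1.04 to 1.99). Slc1a3, a glutamate transporter, rose from 349 to 1709 (2.29, 95% interval 1.95 to 2.64). Slc1a2, another of these, was low in both, at 3.60 and 38.4. The glutamate transporters Slc1a6 and Slc1a7 were called higher in FLCs, at 117 against 25.9 and 26.7 against 1.52. In family 38, Slc38a1 and Slc38a2, the glutamine and alanine transporters SNAT1 and SNAT2, lie side by side in the genome and were both called in ALCs. Slc38a1 stood at 1677 and 12337, and its SE of 0.622 was large for a gene of that level (2.88, 95% interval 1.66 to 4.10). Slc38a2 stood at 5092 and 10412 (1.03, 95% interval 0.75 to 1.31), a call that both recentrings end. Slc38a5 went from 19.9 to 77.1, and Slc38a11 had no read in FLCs and 22 in ALCs, at least 12.4-fold higher.

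Family 38 also held 3 members called higher in FLCs. Slc38a4, an imprinted neutral amino acid transporter, had 229.7 normalized counts in FLCs and 3.73 in ALCs (log2 fold change -5.95, 95% interval -7.01 to -4.88). Slc38a3, SNAT3, had 44.4 in FLCs and none in ALCs, which makes it at least 19.9-fold higher in FLCs. Slc38a9, the arginine sensor of the lysosome, stood at 2236 and 935 (-1.26, 95% interval -1.53 to -0.98). The remaining members, Slc38a6, Slc38a7 and Slc38a10, were not called, and 82.7% of the Slc38a6 transcript is near-identical to another annotated gene. In family 43 the large neutral amino acid transporter Slc43a2 was called in ALCs (41.1 and 259), and the related Slc43a1 was not called. Slc43a3, a purine nucleobase transporter that the class holds by its family number alone, was called in FLCs (178 and 60.1). The peptide transporter Slc15a3 and the amino acid transporter Slc36a3 were not called either.

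Family 6, of sodium- and chloride-coupled transporters for neurotransmitters and amino acids, held the largest folds towards FLCs among members with a mean of at least 100. Slc6a8, the creatine transporter (chromosome X, 73673150 to 73682502, plus strand), had 2905 normalized counts in FLCs and 17.9 in ALCs, 162-fold lower. Its log2 fold change was -7.34, 95% interval -7.88 to -6.80, DESeq2 adjusted p = 1.04e-154. Slc6a4, the serotonin transporter, stood at 1122 and 8.19 (-7.10, 95% interval -7.78 to -6.42), and Slc6a15, a neutral amino acid transporter, at 1699 and 46.7 (-5.18, 95% interval -5.73 to -4.64). The intervals of Slc6a8 and Slc6a4 overlap, so their folds are not told apart. Slc6a6, the taurine transporter, fell from 3573 to 1681, with an interval of -1.35 to -0.82 that crosses a 2-fold change. Slc6a2, the noradrenaline transporter, and Slc6a5, a glycine transporter, had 18.1 and 8.05 in FLCs. ALCs had no read of either, so they were at least 8.13-fold and 3.61-fold higher in FLCs. Slc6a7, for proline, went from 88.6 to 13.5. The 3 members called in ALCs were Slc6a14 (74.7 and 207), Slc6a19 (9.0 and 60.9) and Slc6a3, the dopamine transporter (1.78 and 19.7), whose call ends under recentring on the median. Slc6a9, the glycine transporter GlyT1, had the highest implied mean per kilobase of the family in both groups, stood at 4317 and 3324 normalized counts and was not called, and 30.2% of its exonic bases overlap a gene on the other strand. Slc6a20a, at 2.42 and 15.2, was not called. The plot of amino acid transporters sets these intervals side by side and shows opposite ends of families 7 and 6.

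**Figure D3:**
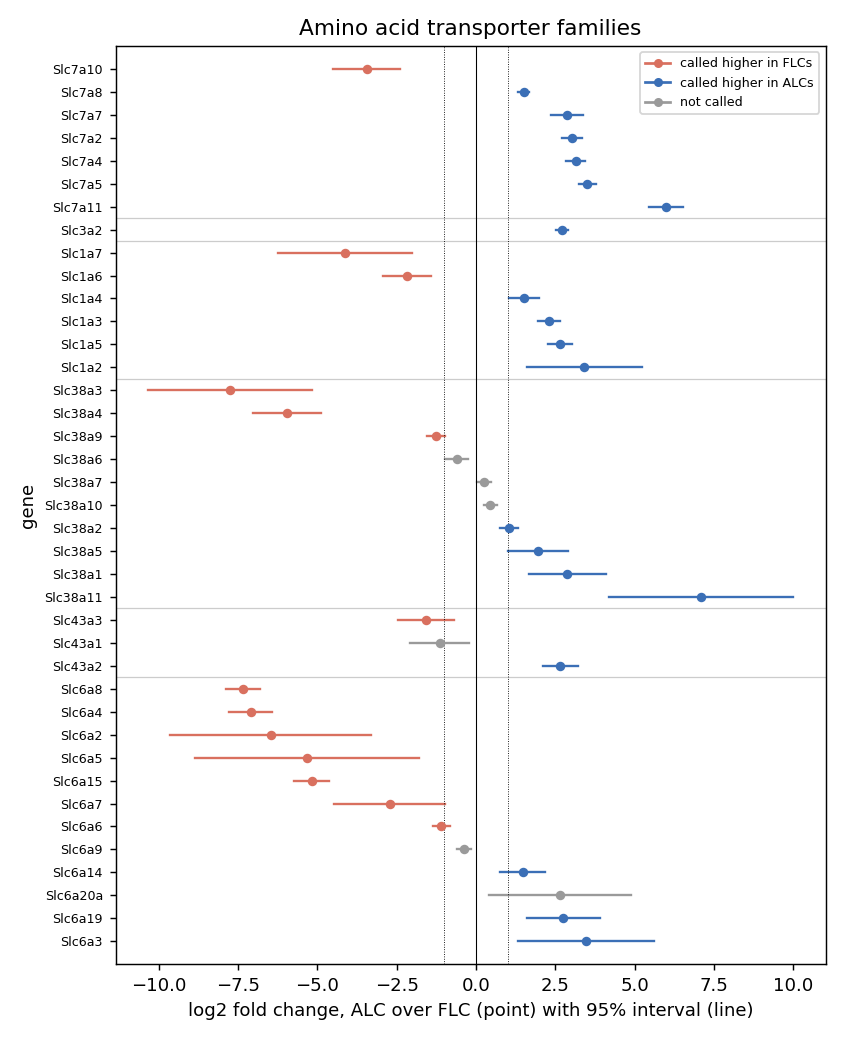
Log2 fold change (ALC over FLC) of the listed members of families 7, 3, 1, 38, 43 and 6, as points with 95% intervals (1.96 SE, 3 libraries per group), coloured by call. Grey lines separate the families and dotted lines mark a 2-fold difference. Slc7a11 lies at 6.0 and Slc6a8 at -7.34, and the widest intervals belong to genes with few counts such as Slc38a11 and Slc6a2.

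Family 2, of facilitative sugar transporters, gave 3 calls in ALCs and 4 in FLCs. With family 5, of sodium-coupled transporters of sugars and other solutes, the calls were 5 in each direction. Slc2a4, the glucose transporter GLUT4 of insulin-responsive tissues, was at 126 normalized counts in FLCs and 22 in ALCs (log2 fold change -2.51, 95% interval -3.53 to -1.49). Slc2a10 and Slc2a12 also fell, from 84.0 to 4.39 and from 168 to 52.1. Slc2a13, which carries myo-inositol, went from 157 to 30.8 (-2.35, 95% interval -3.21 to -1.50), and the sodium-coupled inositol transporter Slc5a3 from 1031 to 466 (-1.14, 95% interval -1.48 to -0.80). Slc5a4b was low in both, at 0.559 and 12.5, and lost its ALC call under both recentrings. In the other direction, Slc2a5, the fructose transporter, rose 25.5-fold, from 24 to 611 (4.67, 95% interval 3.89 to 5.45, DESeq2 adjusted p = 6.46e-31). Slc2a3, GLUT3, rose from 182 to 1031, and Slc2a8 from 636 to 1546, a call that both recentrings end. Slc2a9, which carries urate, had 165 and 249 and was not called, nor were Slc37a1, Slc37a3 and Slc45a4. Slc2a3 and Slc2a5 are also known from sperm, and Slc2a5 from some macrophages. The sums of the spermatid genes (42.8 and 18145) and immune genes (453 and 2717) moved the same way and their part was not tested.

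Family 16 was called in all 9 members, with 7 higher in ALCs. That is 77.8% in ALCs and 22.2% in FLCs, where 32.1% and 22.3% of all listed genes are called. The lactate transporters went in opposite directions. Slc16a1, MCT1, stood at 2202 normalized counts in FLCs and 9370.5 in ALCs (log2 fold change 2.09, 95% interval 1.75 to 2.42), and Slc16a3, MCT4, at 431 and 111 (-1.95, 95% interval -2.55 to -1.36). Per kilobase of exon, Slc16a1 was 6.14 times Slc16a3 in FLCs and 101 times in ALCs. Slc16a10, which carries aromatic amino acids, rose from 170.4 to 1204 (2.82, 95% interval 2.45 to 3.19). Slc16a9 had 20.6 in FLCs and 1200.4 in ALCs, the largest fold of the family (5.87, 95% interval 5.39 to 6.34). Slc16a11 and Slc16a13, neighbours on chromosome 11, were at 53.5 and 372, and at 531 and 1196. Slc16a5 rose from 31.5 to 127. The calls of Slc16a6 (249 and 543) and Slc16a13 end under both recentrings, and 22.5% of the exonic bases of Slc16a6 overlap a gene on the other strand. Both membrane partners of these transporters were listed. Bsg had 10572 and 14520 normalized counts and was not called, and Emb rose from 9.77 to 1186 (log2 fold change 6.92, 95% interval 4.56 to 9.29).

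Carriers of organic ions were high in ALCs in 6 of the 8 members of family 22. Slc22a5, the carnitine transporter OCTN2, had 736 normalized counts in FLCs and 9258 in ALCs (log2 fold change 3.65, 95% interval 3.41 to 3.89, DESeq2 adjusted p = 1.03e-193). Slc22a21, another carnitine transporter gene, is near-identical to 41.6% of its transcript, so reads of that part could be split. Its neighbour Slc22a4, for ergothioneine, rose from 3.44 to 84.4 (4.62, 95% interval 3.36 to 5.87). Slc22a23 rose 41.5-fold, from 58.3 to 2419 (5.37, 95% interval 5.05 to 5.70), and the imprinted gene Slc22a18 375-fold, from 2.35 to 882 (8.55, 95% interval 7.46 to 9.63). Slc22a17, a receptor for lipocalin-2, fell from 9375 in FLCs to 1038 in ALCs (-3.17, 95% interval -3.76 to -2.59). Slc22a15 also fell, from 397 to 147. In FLCs Slc22a14 and Slc22a16, genes of sperm, stood at 0.590 and 0.591, the smallest step above none, and in ALCs at 198 and 159. Their log2 fold changes were 8.39, 95% interval 6.22 to 10.55 and 8.07, 95% interval 5.84 to 10.30.

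Smaller families of organic solutes held few calls. Slc10a6, which takes up sulphated steroids, had no read in FLCs and 80.5 normalized counts in ALCs, at least 45.3-fold higher. Slc51a and Slc51b encode the subunits of 1 transporter of bile acids and steroid conjugates, and they were called in opposite directions. Slc51a went from 65.9 to 27.9 (-1.24, 95% interval -2.07 to -0.42) and Slc51b from 46.9 to 330.3 (2.81, 95% interval 2.31 to 3.32). Slc27a6, for fatty acids, fell from 279 to 92.5, and Slc27a4, higher per kilobase in both groups, was not called at 2959 and 2177. Slc17a6, a vesicular glutamate transporter, had no read in FLCs and 10.4 in ALCs, at least 5.85-fold higher. Slc10a3, Slc10a7, Slc13a4, Slc13a5, Slc18b1, Slc47a1 and Slc47a2 were not called, nor was the urea transporter Slc14a2.

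**Figure D4:**
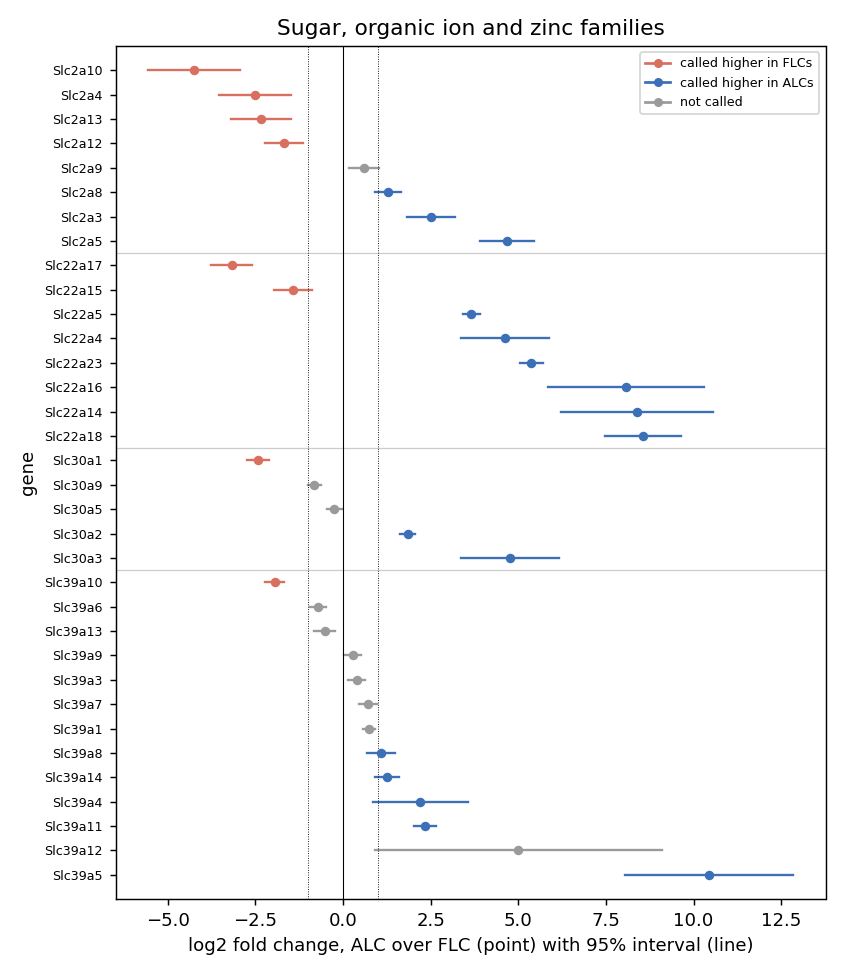
Log2 fold change (ALC over FLC) of the listed members of families 2, 22, 30 and 39, as points with 95% intervals (1.96 SE, 3 libraries per group), coloured by call. Grey lines separate the families and dotted lines mark a 2-fold difference. Slc39a5 lies at 10.44 with an interval from 8.04 to 12.85.

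Mitochondrial carriers were the largest family, with 38 members, of which 16 were called higher in ALCs, 3 in FLCs and 19 were not called. These calls are 42.1% in ALCs and 7.89% in FLCs, where 32.1% and 22.3% of all listed genes are called. The summed implied means of the family took up 0.431% of all listed genes in FLCs and 0.473% in ALCs. Of the 4 with the highest implied mean per kilobase in FLCs, Slc25a3, Slc25a5, Slc25a4 and Slc25a1, only Slc25a5 was called. Slc25a3, the phosphate carrier, stood at 30160.2 normalized counts in FLCs and 22626 in ALCs (log2 fold change -0.41, 95% interval -0.62 to -0.21). Slc25a4, the ADP/ATP carrier of muscle and heart, was at 5237 and 6518 (0.32, 95% interval 0.09 to 0.54). Slc25a5, the more widely expressed ADP/ATP carrier, rose from 6246 to 16884 (1.43, 95% interval 1.22 to 1.65). Per kilobase it was 1.7 times Slc25a4 in FLCs and 3.70 times in ALCs, but 72.3% of its transcript is near-identical to another annotated gene. Slc25a1, the citrate carrier, had 3757 and 6003 and was not called.

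Several other carriers rose by more than Slc25a5, and further ALC calls had smaller folds. Slc25a20, the carnitine/acylcarnitine carrier, rose from 1274 to 6114 (log2 fold change 2.26, 95% interval 2.05 to 2.48, DESeq2 adjusted p = 5.70e-91). Slc25a20 and the plasma membrane carnitine transporter Slc22a5 were thus called in the same direction. Slc25a30 rose 12.2-fold, from 643 to 7832 (3.61, 95% interval 3.25 to 3.96). Slc25a29, for basic amino acids, stood at 412 and 3222 (2.97, 95% interval 2.36 to 3.58), and its neighbour Slc25a47, 163 bases away, at 69.9 and 318. Slc25a33, a pyrimidine nucleotide carrier, rose from 240.0 to 1461 (2.61, 95% interval 2.30 to 2.91), and Slc25a34 from 432 to 2957. Slc25a36, the other pyrimidine nucleotide carrier, was not called at 4493 and 2707 (-0.73, 95% interval -0.97 to -0.49). Slc25a39, for glutathione, went from 3988 to 9784 (1.29, 95% interval 1.00 to 1.59). The remaining ALC calls were Slc25a45, Slc25a2 and Slc25a54 and, nearest the threshold, Slc25a10, Slc25a16, Slc25a18, Slc25a24 and Slc25a42, with log2 fold changes of 1.04 to 1.16. Those 5 and Slc25a39 lost the call under both recentrings, which left 10 calls in ALCs and 4 in FLCs.

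The 3 members called in FLCs included an aspartate/glutamate carrier. Slc25a13, citrin, fell from 4534 to 1397 (log2 fold change -1.70, 95% interval -1.95 to -1.45, DESeq2 adjusted p = 9.57e-40), whereas its paralog Slc25a12, aralar, was not called at 1483 and 1953 (0.40, 95% interval 0.18 to 0.62). Per kilobase of exon, Slc25a12 was 0.169 times Slc25a13 in FLCs and 0.723 times in ALCs. Slc25a53 and Slc25a27 fell from 328 to 91.5 and from 241 to 76.3. Slc25a31, the ADP/ATP carrier of sperm, was not called, at 3.62 and 18.5 (2.35, 95% interval 0.43 to 4.27), nor were Slc25a15, a21, a22, a23, a25, a32, a35, a38, a40, a41, a44, a46 and a48. The plot of mitochondrial carriers shows a dense middle between -1 and 1 and a longer arm towards ALCs.

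**Figure D5:**
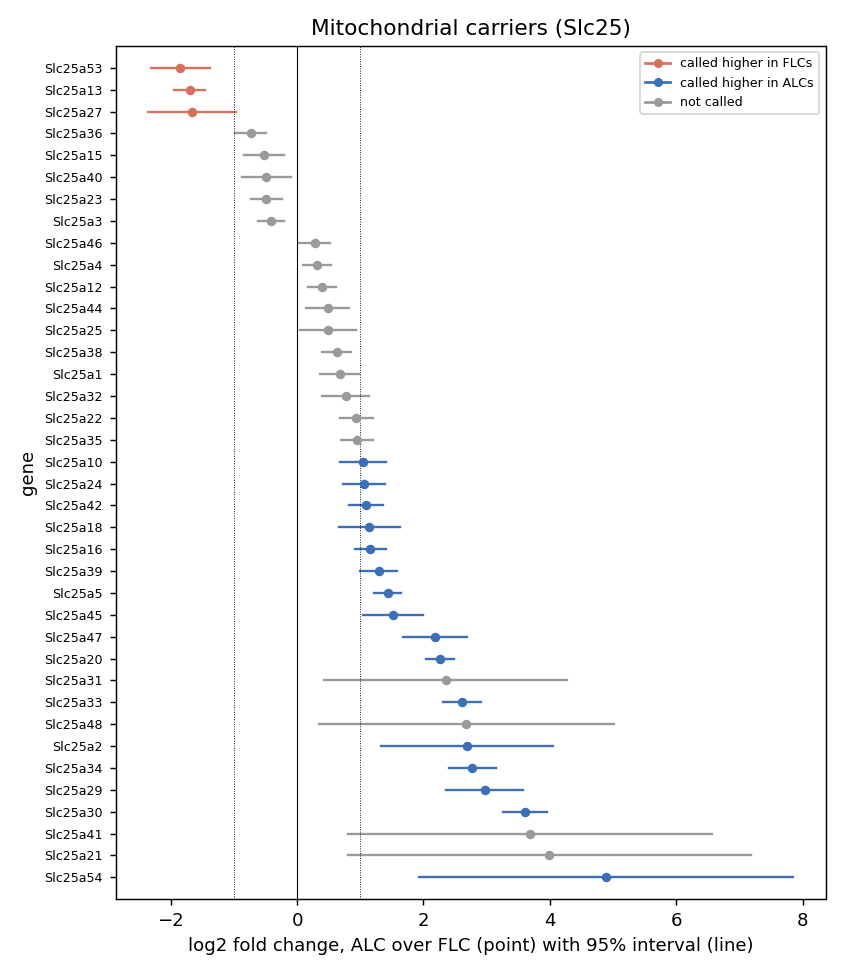
Log2 fold change (ALC over FLC) of the 38 listed members of family 25, as points with 95% intervals (1.96 SE, 3 libraries per group), coloured by call. Dotted lines mark a 2-fold difference. Slc25a53, Slc25a13 and Slc25a27 are called in FLCs, Slc25a30 lies at 3.61 with a narrow interval, and Slc25a54, Slc25a21 and Slc25a41 have wide intervals.

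Zinc transporters gave 7 calls in ALCs (38.9%) and 2 in FLCs (11.1%) among 18 members, where 32.1% and 22.3% of all listed genes are called. The FLC calls were an exporter and an importer. Slc30a1, the zinc exporter of the plasma membrane, fell from 924 normalized counts in FLCs to 172 in ALCs (log2 fold change -2.43, 95% interval -2.74 to -2.11, DESeq2 adjusted p = 3.00e-51). Slc39a10, an uptake transporter, fell from 3407 to 884 (-1.95, 95% interval -2.22 to -1.68). Slc30a2, which loads zinc into vesicles, rose from 1746 to 6293 (1.85, 95% interval 1.64 to 2.06), and Slc30a3, known from synaptic vesicles, from 3.58 to 96.9. Slc39a5 had no read in FLCs and 226 in ALCs, at least 128-fold higher, the largest bound among the members. Slc39a11 rose from 451 to 2289 (2.35, 95% interval 2.03 to 2.66). The uptake transporters Slc39a14 (275 and 656), Slc39a8 (181 and 382) and Slc39a4 (7.46 and 34.3) were called in ALCs, but lost the call under both recentrings, which left 4 zinc calls in each direction. Slc39a7, of the secretory pathway, and Slc39a1 had the highest implied means per kilobase in both groups, stood at 6761 and 11024 and at 4229 and 7069.7, and were not called. Of the exonic bases of Slc39a7, 80.7% are shared with another gene on the same strand, and 41.2% of the Slc39a1 transcript is near-identical to a pseudogene. Slc30a5, Slc30a9, Slc39a3, Slc39a6, Slc39a9, Slc39a12 and Slc39a13 were not called.

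Among other metals, iron export and heme transport went in opposite directions. Slc40a1, the iron exporter ferroportin, fell from 709 to 210.1 normalized counts (log2 fold change -1.75, 95% interval -2.15 to -1.36), and Slc48a1, a heme transporter, rose from 2543 to 8545 (1.75, 95% interval 1.49 to 2.01). Slc11a2, the iron importer DMT1, was not called at 2139 and 1352. Slc11a1, the NRAMP1 transporter of macrophages, rose from 8.22 to 117. The immune genes Ptprc (5.73 and 271) and Cd68 (91.1 and 460) rose with it, and their part was not tested. Slc31a2, for copper, rose from 1175 to 3909 (1.73, 95% interval 1.52 to 1.95), and the copper importer Slc31a1 was not called at 2874 and 4735. The magnesium transporters Slc41a2 and Slc41a3 rose from 12.4 to 198 and from 323 to 1603.

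Transporters of inorganic ions held 39 members, with 10 called in each direction and 19 not called, and after either recentring 18 were called in FLCs and 9 in ALCs. The cation-chloride cotransporters of family 12 were lower in ALCs by sign in all 6 members. Slc12a7, KCC4, fell from 21026 to 4694 normalized counts (log2 fold change -2.16, 95% interval -2.32 to -2.01, DESeq2 adjusted p = 7.76e-158). Slc12a8 and Slc12a5 fell from 512 to 103 and from 556 to 218. Slc12a2 and Slc12a4 were not called, with log2 fold changes of -0.99 and -0.31. The sodium/calcium exchangers Slc8a1 (325 and 73.9) and Slc8a3 (87.9 and 37.7) were both called in FLCs. In family 24, of related exchangers, Slc24a4 and Slc24a5 were called in FLCs and Slc24a2 in ALCs (13.4 and 156), and 39.5% of the exonic bases of Slc24a5 overlap a gene on the other strand.

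Of the sodium/proton exchangers, Slc9a7 fell from 165 to 28.3 normalized counts and Slc9a5 from 119 to 35.5, and Slc9a8 went from 1539 to 3127, a call that both recentrings end. Slc9a3r1, a scaffold protein, rose from 91.1 to 426. Bicarbonate transporters were called in ALCs for Slc4a8 (199 and 895) and Slc4a11 (38 and 341), and Slc4a2, the highest of them per kilobase in both groups, was not called at 2093 and 1619.7. The sulphate transporter Slc26a2 rose from 865 to 2372, and the anion exchanger Slc26a7 fell from 790.3 to 330.0. The phosphate transporters Slc20a1 and Slc20a2 were not called, and Slc34a2 stood at 1 step in FLCs (0.591) and 95.1 in ALCs (7.33, 95% interval 5.05 to 9.60). The members of these families without a call also include Slc4a4, Slc4a7, Slc4a1ap, Slc9a9, Slc9a3r2, Slc9b2, Slc24a3, Slc26a3, Slc26a5, Slc26a10 and Slc26a11. Slc26a3 and Slc26a10 had no read in FLCs, and Slc26a5 none in ALCs.

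Vitamin, nucleoside and choline transporters changed in both directions. The nucleoside transporter Slc29a1, ENT1, rose from 2742 to 19794 normalized counts (log2 fold change 2.85, 95% interval 2.53 to 3.18, DESeq2 adjusted p = 1.39e-64), whereas Slc29a2, ENT2, fell from 287 to 89.5 (-1.68, 95% interval -2.21 to -1.15). Per kilobase, Slc29a1 was 7.20 times Slc29a2 in FLCs and 167 times in ALCs. Slc29a3, ENT3 of the lysosome, rose from 1214 to 3914. The sodium-coupled nucleoside transporter Slc28a1 fell 126-fold, from 472 to 3.74 (-6.98, 95% interval -7.98 to -5.98). Slc28a2 had no read in FLCs and 23.4 in ALCs, at least 13.2-fold higher, but 99.8% of its transcript is near-identical to another annotated gene, so its value is uncertain. The folate carrier Slc19a1 fell from 1639.8 to 559 (-1.55, 95% interval -1.84 to -1.27), and the proton-coupled folate transporter Slc46a1 went from 543 to 1177, a call that both recentrings end. The thiamine transporters split, with Slc19a3 falling from 112 to 22.3 and Slc19a2 rising from 398 to 2090.3 (2.39, 95% interval 2.08 to 2.70). Slc46a3 rose from 229 to 1812. Slc29a4 and the riboflavin transporter Slc52a2 were not called. Slc5a6, which carries biotin and pantothenate, rose from 385 to 1175, with 55.2% of its transcript near-identical to another annotated gene. In the choline transporter family, Slc44a2 fell from 1948 to 450.3 (-2.11, 95% interval -2.37 to -1.86), Slc44a4 was called in ALCs, Slc44a3 was called there but lost the call under both recentrings, and Slc44a1 was not called.

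Nucleotide sugar transporters of family 35, which feed glycosylation in the secretory pathway, gave 5 calls in ALCs, 1 in FLCs and 7 without a call. These calls are 38.5% in ALCs and 7.69% in FLCs, where 32.1% and 22.3% of all listed genes are called. Slc35d1 rose from 471 to 1462 normalized counts (log2 fold change 1.63, 95% interval 1.32 to 1.95), and Slc35g2 fell from 158 to 29.6 (-2.42, 95% interval -3.12 to -1.72). The UDP-galactose transporter Slc35a2 (947 and 2099), Slc35b1 and Slc35d2 lost the call under both recentrings, which left 2 calls in each direction. Slc35c1, the GDP-fucose transporter, was not called at 884 and 1170.1, nor were Slc35c2, Slc35e2, Slc35e3, Slc35f5, Slc35f6 and Slc35g1.

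Some members are best known from other cells of the testis or from other tissues, and 7 of the 13 such genes checked were listed. Of these, Slc2a3, Slc9c1, Slc11a1, Slc17a6, Slc22a14 and Slc26a8 were called in ALCs, and Slc25a31, of sperm, was not called at 3.62 and 18.5 normalized counts. Slc9b1, Slc22a16 and Slc35g3 are not among the 13 and were added after their values were seen. The sperm proton exchangers Slc9c1 and Slc9b1 stood at no read and 2.94 normalized counts in FLCs and at 79.1 and 124 in ALCs, with Slc9c1 at least 44.6-fold higher. Slc26a8, of the sperm tail, rose from 19.2 to 118, and Slc35g3 from 4.49 to 69.6. They moved with Slc22a14 and Slc22a16 and with spermatid genes such as Prm2 (16.5 in FLCs and 6366 in ALCs) and Akap4 (1.73 and 2466). The part of spermatid RNA in these results was not tested.

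Transport genes outside the Slc symbols were counted from a list that names them by symbol, with every listed match counted. The list was set with earlier results of these data known, and the paper reports Aqp2 and Rhbg as ALC-specific. Of 76 listed, 38 (50.0%) were called higher in ALCs, 10 (13.2%) higher in FLCs and 28 were not called, where the same rule calls 32.1% and 22.3% of all listed genes. Both recentrings gave 36 calls in ALCs (47.4%) and 17 in FLCs (22.4%). Over all listed genes, recentring on the listed median calls 25.4% in ALCs and 34.2% in FLCs. The ATP-driven ABC transporters gave 19 calls in ALCs and 6 in FLCs among 36 genes. The organic anion transporters with Slco symbols gave 5 and 1 among 7. Of these ALC calls, Abca14, Abca15, Abca16, Slco1a4, Slco6c1 and Slco6d1 had no read in FLCs, and 16.3 to 98.7 normalized counts in ALCs. The part of spermatid RNA in these calls was not tested. Aquaporins, the water channels, were called in ALCs in 6 of 7 genes, led in level by Aqp2 at 39.4 and 5924 normalized counts (log2 fold change 7.23, 95% interval 6.81 to 7.66). The ammonium transporter Rhbg had 1.18 in FLCs and 5760 in ALCs (12.26, 10.79 to 13.72). Among subunits of the sodium pump, which sets the sodium gradient that drives many solute carriers, Atp1b2 fell from 16304 to 3491, and Atp1a4, the form of sperm, rose from 14.1 to 1025. The outer membrane channels Vdac1, Vdac2 and Vdac3 were not called. Pyruvate carrier subunit Mpc1 rose from 125 to 368, and Mpc2 was not called.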

How the data were processed

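Bulk RNA of sorted FLCs and ALCs was sequenced, with 3 libraries per stage. As the methods describe, the authors demultiplexed with CASAVA 1.8.2, mapped to GRCm38 with GemTools, counted reads per GENCODE gene in-house, dropped genes under 10 reads and ran DESeq2, with a design not given in the sources used here. Whether counting used strand is not given in the sources used here, and the text names both a stranded kit with ribosomal RNA removal and poly(A)+ RNA. The table deposited by the authors holds, for each gene with an adjusted p below 0.05, a signal column (mean normalized count), a log2 fold change with its standard error, a Wald score whose sign is opposite to the fold change in all 10580 genes, and p-values before and after adjustment. Reads per library were not analysed here, so the planned count test in edgeR, leaving out a library and fits with a replicate block were not run. The fold changes, errors and p-values printed are those of the deposited table, and the direction follows its log2 fold change column.

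From these values were computed the implied group means (3 libraries each), 95% intervals, per-kilobase levels over GENCODE vM21 exons, calls (adjusted p below 0.01, fold above 2) and a test against a log2 fold change of 1. The deposited adjusted p-values were matched by Benjamini-Hochberg adjustment over 16048 tests, within 6.53e-05%. Members were named by fixed rules: the 10 largest folds per direction at a mean of at least 100, the 10 highest levels per group, called members of families with 5 or more members and of Slc2, Slc7, Slc25, Slc30 and Slc39, pairs in opposite directions and members known from other cells. Further members of small families were described to account for the whole set, and pairs of paralogs were chosen with their values known. Values of a few genes are not reported here, though counts include them. Members and lists were chosen with earlier results of these data known. Near-identical means at least 95% identity by BLAST+ 2.17.0 over more than 20% of a transcript. Scripts used Python 3.11.15, pandas 2.3.3, numpy 2.4.6, scipy 1.17.1 and matplotlib 3.10.9 and were tested on simulated data. The paper calls the libraries biological triplicates, with cells of each stage purified in several independent experiments. Labels do not say whether libraries came from separate animals, so p-values measure the spread between these libraries.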

Additional observations from a re-analysis of the deposited data

How the results depend on the processing

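The count of members called higher in FLCs, 47, became 74 with an adjusted p below 0.01 and no limit on the fold, 29 in the test against a log2 fold change of 1, and 30 when members needed a mean of 100 normalized counts. Each follows from how the rule is built, since the first drops a criterion and the others add one. An adjusted p below 0.05 gave 50, and both recentrings gave 66. The 91 members called higher in ALCs became 61 to 113 under the same settings, within 1.5 times. No member changed direction and stayed called, an outcome fixed in advance. Called members have a log2 fold change beyond 1 to either side, the shifts were at most 0.41, and the other settings keep the sign. Of 138 called members, 117 and 118 kept their call under recentring on the listed median and on equal sums. In the test against a 2-fold change, 90 kept it. Of 80 members not called, 10 and 9 changed sign under the recentrings. No paired analysis was possible because no values per library were used, and for the same reason no library was left out. Genes with adjusted p of 0.05 or more are not analysed here, so shares over members are shares of listed genes. Low genes limit the folds: 9 members had no read in FLCs and 4 in ALCs.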

Other observations

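Solute carrier genes that lie within 100000 bases of each other formed 14 neighbouring pairs. The log2 fold changes had the same sign in 11 pairs and opposite signs in 3. Over all 218 members the sign was positive in 134 and negative in 84, so many pairs share a sign whatever their position. Slc6a19 and Slc12a7, 28229 bases apart on chromosome 13, were called in opposite directions, Slc6a19 at 9.0 and 60.9 normalized counts (FLCs, ALCs) and Slc12a7 at 21026 and 4694. The sperm proton exchanger gene Slc9b1 rose (log2 fold change 5.40, 95% interval 4.13 to 6.66), whereas Slc9b2, 2642 bases from it, had a log2 fold change of -3.69 (95% interval -6.75 to -0.63) and was not called. Slc25a41 and Slc25a23, 2057 bases apart, had log2 fold changes of 3.69 and -0.48 and were not called. In the pairs of like sign, Slc25a29 and Slc25a47, Slc16a11 and Slc16a13, Slc38a1 and Slc38a2, Slc22a5 and Slc22a4, Slc25a54 and Slc25a24, and Slc5a6 and Slc30a3 were called in ALCs together. No test was run on these pairs.

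Among the 10 members with the highest implied means in ALCs, Slc38a1 had the largest SE of the log2 fold change, 0.622 at 12337 normalized counts. The next largest was 0.166, for Slc29a1, and the neighbour Slc38a2 had 0.143. Values per library were not analysed here.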
